A study of Saccharomyces cerevisiae with 18 samples.

Results

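This account concerns how the response of baker's yeast to oxygen differed between an amylase-secreting strain, AAC, and an empty-plasmid strain, NC. The measure is the interaction over 12 of the 18 arrays of the study, chosen by sample title: the anaerobic minus aerobic difference in AAC, minus the same difference in NC. The groups were AAC anaerobic, AAC aerobic, NC anaerobic and NC aerobic, with 3 arrays each, labelled as biological replicates. All 5498 Saccharomyces cerevisiae probe sets that name 1 gene entered, for 5449 genes. Both strains share the host CEN.PK 530-1C, which is known to lack its own triose phosphate isomerase gene, and a 2 μm plasmid that carries POT1, the isomerase gene of fission yeast. AAC, labelled high in amylase production, carries the amylase behind the alpha factor leader and the TPI1 promoter, and NC, labelled without amylase, carries the TPI1 promoter alone. Cultures of 500 ml in SD-SCAA medium were stirred at 600 rpm and 30 °C, and cells were taken when the optical density was close to 1. The remaining 6 arrays belong to a strain labelled with lesser amylase production and enter only an alternative fit.

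A secreted protein enters the endoplasmic reticulum, where chaperones of the Hsp70 class and disulfide isomerases fold it. Ero1 passes electrons from new disulfide bonds to oxygen, and when unfolded protein builds up the kinase Ire1 splices HAC1 mRNA, which raises the transcription of folding genes. Without oxygen yeast cannot respire or make sterols, unsaturated fatty acids or heme, and it takes up sterols, changes its cell wall mannoproteins and lives by fermentation. An interaction value of 0 means that the log2 change without oxygen was equal in both strains. A value above 0 means that the change was more positive, or less negative, in AAC. Expression levels, oxygen effects and interactions are in log2 units unless a fold is given.

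The 12 arrays were alike in overall level. Array medians lay between 7.08 and 7.13 log2 units, and 90.1% to 91.9% of the probe sets were above the background level of their array. That level was the 95th percentile of 1746 probe sets taken as fission yeast (5.58 log2 units over the 12 arrays). Their genes were absent from the S. cerevisiae reference. The host's own TPI1 was at background in all 4 groups. The fission yeast tpi1 probe set averaged 9.92 ± 0.509 in anaerobic AAC, 9.23 ± 0.229 in aerobic AAC, 6.71 ± 0.498 in anaerobic NC and 6.24 ± 0.0991 in aerobic NC (log2 units, SD, n = 3 each). No AAC array overlapped an NC array, so that amylase and plasmid isomerase level cannot be told apart as what the strains differ in. The interaction of the tpi1 probe set was 0.22 ± 0.394 (SE, limma p adjusted over all 10928 probe sets = 0.866). The array labelled NC anaerobic replicate 1 stood apart from its group, with a standard deviation of 0.133 log2 units around the group's means, against 0.0394 to 0.106 for the other 11, and a tpi1 value of 7.29 beside 6.42 and 6.43. Of transcripts specific to mating type a, STE2, STE6, MFA1, MFA2, AGA2 and BAR1 were above background on all 12 arrays, with group means of 7.40 to 10.8 log2 units. Of those specific to mating type alpha, MF(ALPHA)1 and MF(ALPHA)2 were at background on all 12 arrays, while STE3 (group means of 5.82 to 6.01) and SAG1 (6.17 to 7.70) were above it on all 12. Each array averages a whole culture, so fewer cells with a transcript and less of it per cell cannot be told apart.

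The interaction passed the test, limma with Benjamini-Hochberg adjustment over all probe sets and a threshold of 0.05, for 582 of 5498 probe sets (10.6%). It was above 0 for 341 (6.2%) and below 0 for 241 (4.38%), and the median over all probe sets was 0.01. The share of any gene list that passed the interaction is to be read beside these shares. A difference between the oxygen responses of at least 2-fold was seen for 22 of the 582, 4 above 0 and 18 below 0. Not all of these keep that size when values under background are raised to it, as BIO5 went from -1.30 to -0.86. The response to oxygen itself passed for far more probe sets. The interaction has a larger SE than either oxygen effect (for HES1, 0.103 against 0.0725), so these counts are not directly comparable. In AAC 2742 probe sets passed (49.9%), with 1308 higher (23.8%) and 1434 lower (26.1%) without oxygen. In NC 2973 passed (54.1%), with 1293 higher (23.5%) and 1680 lower (30.6%). Between AAC and NC, 966 probe sets passed in anaerobic cultures (17.6%), 523 higher in AAC (9.51%) and 443 lower (8.06%), and 1558 passed in aerobic cultures (28.3%), 670 higher (12.2%) and 888 lower (16.2%).

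**Figure D1:**
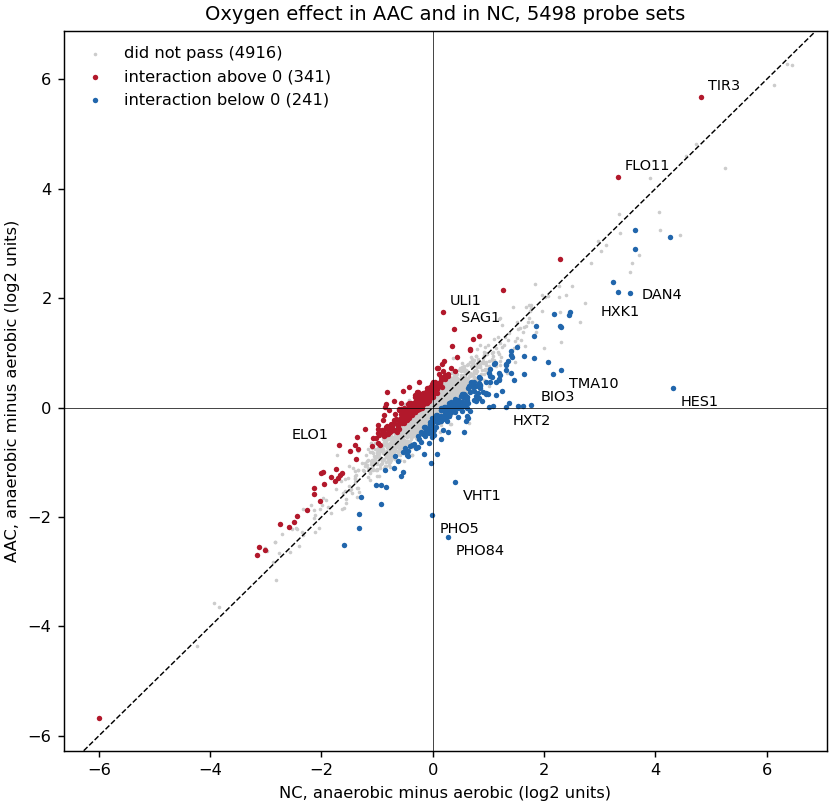
The anaerobic minus aerobic difference of each of the 5498 probe sets in AAC (vertical axis, log2 units) is plotted against the same difference in NC (horizontal axis, log2 units), with the dashed line marking equal responses. Most probe sets lie near the line, 341 passed above it (red) and 241 below it (blue), and HES1, PHO84 and PHO5 lie farthest below.

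By the medians of the signed oxygen effects, these probe sets lay farther from 0 in NC, but rises and falls cancel in such medians. The 341 probe sets above 0 had a median oxygen effect of 0.05 in AAC and -0.28 in NC, and the 241 below 0 had medians of -0.01 in AAC and 0.33 in NC. For the 341 above 0 the median difference between AAC and NC was 0.08 in anaerobic and -0.27 in aerobic cultures, and for the 241 below 0 it was -0.11 in anaerobic and 0.26 in aerobic cultures. Among the 341, the oxygen effect had opposite signs in the strains for 150, was of the same sign and smaller in AAC for 143, and was of the same sign and larger in AAC for 48. Among the 241 these counts were 64, 116 and 61. The oxygen effect of the 341 passed in both strains for 109 with the same sign and 25 with opposite signs. It passed in NC alone for 135, in AAC alone for 71 and in neither for 1. For the 241 these counts were 114, 10, 70, 47 and 0. The interaction is built from these differences, so the counts describe its shape and are not further evidence for it. Of the 582, 306 passed whichever 1 of the 12 arrays was left out. Without NC anaerobic replicate 1 the test passed 1040 probe sets, without NC anaerobic replicate 2 it passed 355, and without 1 array of aerobic NC it passed 347 to 372. For 74 passing genes, those chosen by the naming rule together with BIO4, each setting was checked gene by gene, and 73 of them also passed without NC anaerobic replicate 1.

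HES1, which encodes an oxysterol-binding protein, had the largest interaction in size of the 5498 probe sets. It had 9.52, 9.59 and 9.64 in anaerobic AAC, 9.24, 9.19 and 9.27 in aerobic AAC, 9.88, 10.01 and 9.66 in anaerobic NC and 5.50, 5.58 and 5.52 in aerobic NC. The first 3 groups lay close together and aerobic NC alone was at background. HES1 was 1.27-fold higher without oxygen in AAC and at least 19.3-fold higher in NC, and within aerobic cultures it was at least 12.6-fold higher in AAC than in NC. The interaction was -3.97 ± 0.103 (SE, adjusted p = 9.59e-10), and with values under background raised to the background level it was -3.92. AUS1, the anaerobic importer of sterols, rose strongly in both strains, by 3.25 in AAC and 3.64 in NC. Its interaction of -0.39 ± 0.0935 (SE, adjusted p = 0.0235) passed in 7 of the 12 fits that left out 1 array. These were the only members of 17 sterol uptake, ester and transfer genes to pass (11.8%), and the list's median was -0.09. That share was close to the 10.6% of all probe sets. None of the 25 sterol synthesis genes passed in limma, and 5 had an unadjusted p under 0.05.

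Of 21 measured genes of phosphate acquisition, the phosphate regulon, 13 fell and 3 rose without oxygen in AAC, and 4 fell and 4 rose in NC. Among all probe sets 26.1% fell and 23.8% rose in AAC, and 30.6% fell and 23.5% rose in NC. In the interaction 12 passed (57.1%), 11 below 0 and 1 above 0, and the list's median was -0.32. PHO84, the high-affinity phosphate transporter, had 5.35, 5.35 and 5.19 in anaerobic AAC, 7.86, 7.01 and 8.12 in aerobic AAC, 6.05, 6.08 and 6.01 in anaerobic NC and 5.79, 5.92 and 5.58 in aerobic NC. Aerobic AAC lay above the other 3 groups with no overlap, and anaerobic AAC was at background. PHO84 fell at least 4.28-fold without oxygen in AAC, and its difference in NC was 0.28 log2 units, which did not pass (adjusted p = 0.292). The interaction was -2.65 ± 0.301 (SE, adjusted p = 0.000389), or -2.38 with values raised to background.

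PHO5, the secreted acid phosphatase that phosphate represses, had 6.41, 6.41 and 6.27 in anaerobic AAC, 8.48, 7.76 and 8.73 in aerobic AAC, 6.04, 5.99 and 6.16 in anaerobic NC and 6.05, 6.17 and 5.98 in aerobic NC. Again aerobic AAC stood above the other groups, and the NC arrays of both conditions overlapped. PHO5 fell 3.90-fold without oxygen in AAC, and was 4.78-fold higher in AAC than in NC with oxygen. Its interaction was -1.96 ± 0.256 (SE, adjusted p = 0.00102). The spread among aerobic AAC arrays was wide, with replicate 2 the lowest for both genes, and the calls held whichever array was left out. The other members below 0 were PHO89 at -0.98 (adjusted p = 0.0259), the polyphosphate polymerase subunits VTC3 at -0.84 (adjusted p = 0.00208) and VTC4 at -0.36 (adjusted p = 0.0230), the acid phosphatase PHO11 at -0.83 (adjusted p = 0.0243), SPL2 at -0.71 (adjusted p = 0.00732), PHM6 at -0.53 (adjusted p = 0.0213), PHM7 at -0.40 (adjusted p = 0.000806), the kinase inhibitor PHO81 at -0.36 (adjusted p = 0.0176) and the glycerophosphoinositol transporter GIT1 at -0.32 (adjusted p = 0.0324). The member above 0 was PHO3, an acid phosphatase that thiamine rather than phosphate is known to repress, at 0.83 (adjusted p = 0.000727). PHO3 fell in both strains, by 0.39 in AAC and 1.23 in NC. DET1, another acid phosphatase, did not pass, with an interaction of 0.08 and a 95% interval from -0.08 to 0.23. Leaving out 1 array gave 5 to 11 members below 0, and the fit to all 18 arrays gave 3, with PHO5 not passing.

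**Figure D2:**
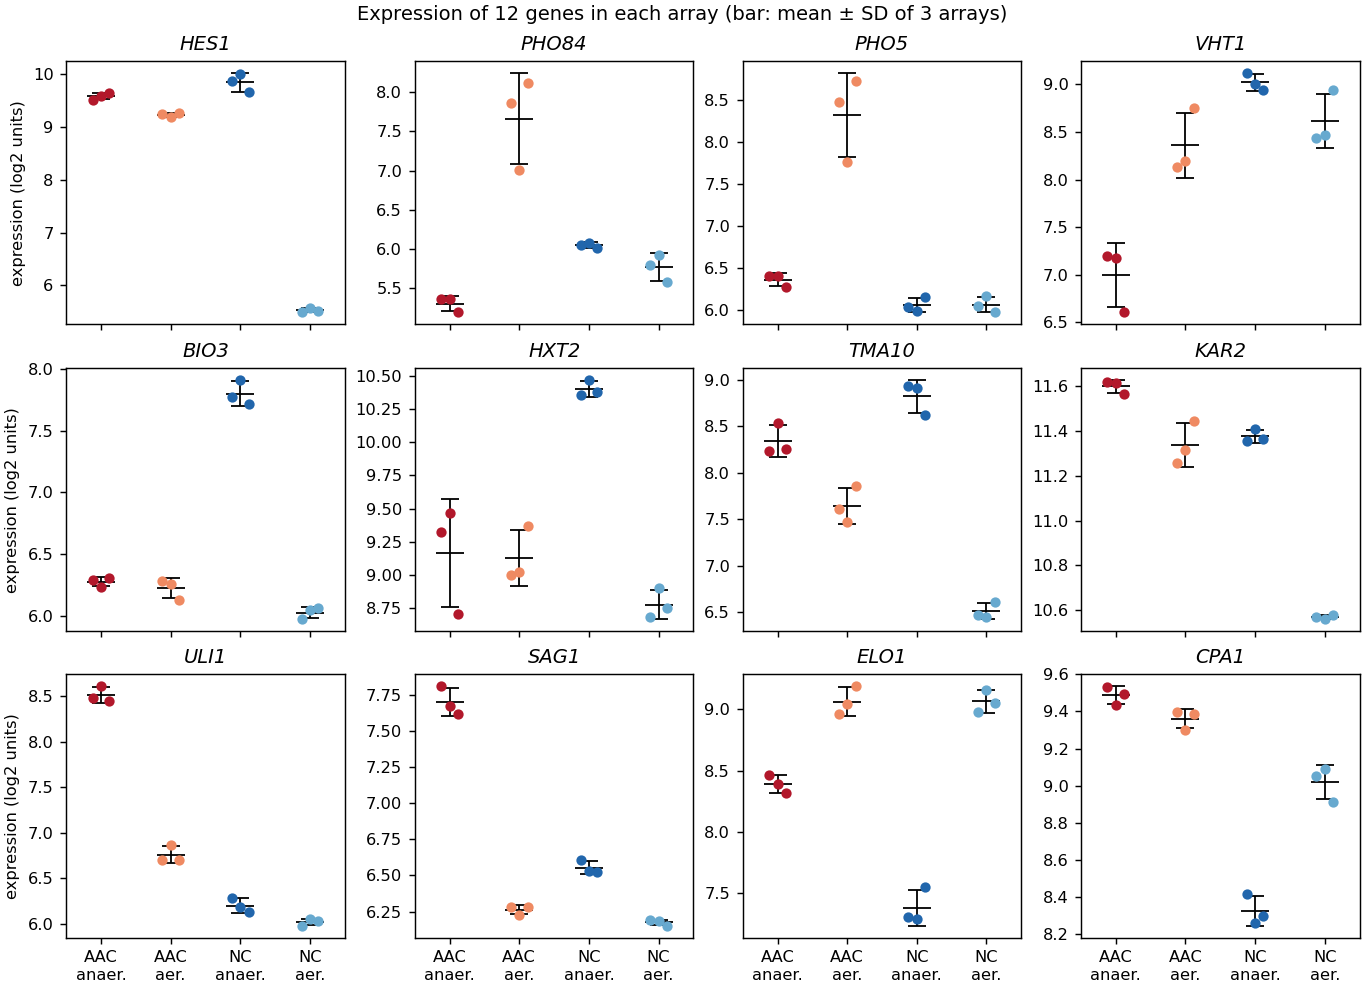
The log2 expression of 12 genes is shown for each array (points), with the mean and SD of the 3 arrays of a group (bars), in the order anaerobic AAC, aerobic AAC, anaerobic NC and aerobic NC. HES1 is low only in aerobic NC, PHO84 and PHO5 are high only in aerobic AAC, BIO3 is high only in anaerobic NC, and ULI1 and SAG1 are high in anaerobic AAC.

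VHT1, BIO3, BIO2 and BIO5, all of biotin uptake or synthesis, were among the 15 largest values below 0. VHT1, the biotin transporter of the plasma membrane, had 7.20, 7.18 and 6.60 in anaerobic AAC, 8.13, 8.20 and 8.75 in aerobic AAC, 9.12, 9.0 and 8.94 in anaerobic NC and 8.44, 8.47 and 8.94 in aerobic NC. The anaerobic AAC arrays were below all others, and the aerobic arrays of the strains overlapped. VHT1 fell 2.57-fold without oxygen in AAC and its NC difference of 0.40 did not pass (adjusted p = 0.101), for an interaction of -1.77 ± 0.276 (SE, adjusted p = 0.00272). BIO3, an aminotransferase of biotin synthesis, had 6.29, 6.24 and 6.31 in anaerobic AAC, 6.29, 6.26 and 6.13 in aerobic AAC, 7.77, 7.91 and 7.71 in anaerobic NC and 5.98, 6.05 and 6.06 in aerobic NC. Anaerobic NC lay far above the other groups. BIO3 was 3.40-fold higher without oxygen in NC and its AAC arrays overlapped, for an interaction of -1.72 ± 0.0807 (SE, adjusted p = 4.06e-07).

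BIO2, which encodes biotin synthase, rose 1.78-fold without oxygen in AAC and 4.18-fold in NC, with an interaction of -1.23 ± 0.188 (SE, adjusted p = 0.00238). BIO5, the transporter of a biotin precursor, was at background in every group but anaerobic NC, where it read 6.52, 6.57 and 6.26. It was at least 1.83-fold higher there than in aerobic NC, and its interaction was -1.30 (adjusted p = 1.49e-05), or -0.86 with values raised to background. BIO4, the dethiobiotin synthetase gene, had an interaction of -0.73 (adjusted p = 0.0104) and rose in NC by 0.66, while its AAC arrays overlapped. These 5 genes were brought together after their values were seen, so no count over them is a test. All 5 passed whichever array was left out.

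Of the genes of sugar uptake and use, HXT2 and SUC2 rose without oxygen in NC while their AAC arrays overlapped, and HXK1 rose in both strains, by more in NC. HXT2, a high-affinity hexose transporter, had 9.32, 9.47 and 8.70 in anaerobic AAC, 9.0, 9.02 and 9.37 in aerobic AAC, 10.36, 10.47 and 10.38 in anaerobic NC and 8.68, 8.90 and 8.75 in aerobic NC. Anaerobic NC lay above every other array, and the AAC arrays of both conditions overlapped. HXT2 was 3.09-fold higher without oxygen in NC, and the interaction was -1.59 ± 0.232 (SE, adjusted p = 0.00188). The transporter list had 6 of 19 probe sets past the test (31.6%), 4 below 0 and 2 above 0, with a median of -0.02. HXT7 at -0.76 (adjusted p = 0.0197), HXT5 at -0.26 (adjusted p = 0.0278) and the glucose-sensing repressor MTH1 at -0.50 (adjusted p = 0.00382) were below 0. STD1 at 0.39 (adjusted p = 0.0229) and the low-affinity transporter HXT1 at 0.68 (adjusted p = 0.0162) were above 0. HXT1 fell 2.75-fold in AAC and 4.41-fold in NC. The fit to all 18 arrays gave 1 transporter call each way. SUC2, the secreted invertase, had 7.36, 7.32 and 7.55 in anaerobic AAC, 7.41, 7.33 and 7.26 in aerobic AAC, 8.75, 8.86 and 8.59 in anaerobic NC and 7.37, 7.45 and 7.29 in aerobic NC. Only anaerobic NC was raised, by 2.57-fold over aerobic NC, and the interaction was -1.28 ± 0.112 (SE, adjusted p = 5.82e-05).

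HXK1, the hexokinase that glucose represses, had 9.41, 9.57 and 9.40 in anaerobic AAC, 7.52, 7.31 and 7.21 in aerobic AAC, 10.33, 10.09 and 9.96 in anaerobic NC and 6.85, 6.80 and 6.72 in aerobic NC. No groups overlapped, and it rose 4.32-fold without oxygen in AAC and 10.1-fold in NC. Its interaction was -1.22 ± 0.138 (SE, adjusted p = 0.000384). TDH1, a minor glyceraldehyde phosphate dehydrogenase isoform, had 11.90, 11.93 and 12 in anaerobic AAC, 11.64, 11.64 and 11.64 in aerobic AAC, 11.53, 11.46 and 11.39 in anaerobic NC and 10.18, 10.31 and 10.15 in aerobic NC. It rose 1.24-fold in AAC and 2.37-fold in NC, and with oxygen it was 2.70-fold higher in AAC than in NC, for an interaction of -0.94 ± 0.0727 (SE, adjusted p = 2.26e-05). The glucokinase GLK1 had an interaction of -0.91 (adjusted p = 0.000264) and GPM2, a homologue of phosphoglycerate mutase, one of -0.43 (adjusted p = 0.00163). Of the 25 glycolysis and ethanol genes 8 passed (32.0%), 6 below 0 and 2 above 0, with a median of -0.09. The remaining ones were ENO1 at -0.52 (adjusted p = 0.00178) and PGK1 at -0.20 (adjusted p = 0.0418) below 0, and the alcohol dehydrogenases ADH1 at 0.28 (adjusted p = 0.0112) and ADH3 at 0.43 (adjusted p = 0.00490) above 0. TDH1, like ENO1 and ADH1, has close paralogs whose transcripts a probe set may also read. The fit to all 18 arrays gave 1 call above and 2 below 0, and TDH1 and GPM2 did not pass.

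Among genes of storage carbohydrates the passing members were mostly below 0. Of 19 trehalose and glycogen genes, 5 passed below 0 and 1 above 0 (31.6%), and 17 of the 19 had values below 0, with a median of -0.19. The glycogen synthase GSY1 had 7.17, 7.36 and 7.09 in anaerobic AAC, 6.34, 6.27 and 6.29 in aerobic AAC, 8.32, 8.06 and 8.12 in anaerobic NC and 6.35, 6.35 and 6.32 in aerobic NC. Aerobic arrays of both strains overlapped, and anaerobic NC was the highest group. GSY1 rose 1.87-fold in AAC and 3.55-fold in NC, with an interaction of -0.92 ± 0.105 (SE, adjusted p = 0.000384). GLC3, the glycogen branching enzyme gene, rose 1.55-fold in AAC and 2.67-fold in NC, with an interaction of -0.78 (adjusted p = 0.000253). The trehalose phosphatase gene TPS2 at -0.39 (adjusted p = 0.00345), the trehalase gene NTH1 at -0.31 (adjusted p = 0.00398) and PGM2 at -0.32 (adjusted p = 0.0193) were also below 0, and UGP1 at 0.35 (adjusted p = 0.0357) was above 0. The fit to all 18 arrays gave 3 calls below and 0 above. Per array, the median deviation of the list's genes from their own means was 0.12 ± 0.0167 in anaerobic AAC, -0.00682 ± 0.0191 in aerobic AAC, 0.09 ± 0.0660 in anaerobic NC and -0.25 ± 0.0232 in aerobic NC (log2 units, SD, n = 3 each).

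Chaperone and stress genes were mixed. TMA10, a stress-induced ribosome-associated protein gene, had 8.24, 8.53 and 8.25 in anaerobic AAC, 7.61, 7.47 and 7.86 in aerobic AAC, 8.94, 8.91 and 8.62 in anaerobic NC and 6.47, 6.45 and 6.61 in aerobic NC. It rose 1.62-fold without oxygen in AAC and 4.96-fold in NC, and aerobic NC was below every other array. Its interaction was -1.62 ± 0.162 (SE, adjusted p = 0.000176). Of the 35 heat shock and general stress genes 9 passed (25.7%), 6 below 0 and 3 above 0, with a median of -0.09. The fit to all 18 arrays gave 1 below 0 and 0 above. With 1 array left out, 4 to 7 were below 0, and above 0 were 5 without NC anaerobic replicate 1, 3 without AAC aerobic replicate 2 and 1 or 2 without any other array. The others below 0 included the mitochondrial chaperone gene HSP78 at -0.44 (adjusted p = 0.0153) and the cytosolic Hsp70 gene SSA1 at -0.44 (adjusted p = 0.00813), and the members above 0 were HOR7 at 0.42 (adjusted p = 0.0162), HSP31 at 0.50 (adjusted p = 0.0429) and SPI1 at 0.53 (adjusted p = 0.0357). HSP78, SSA1 and HOR7 did not pass in the fit to all 18 arrays, nor HOR7 after quantile normalization. HSP12 was higher in AAC under both conditions, 2.36-fold without and 2.66-fold with oxygen, and its interaction of -0.17 did not pass (95% interval -0.42 to 0.07). GSC2, the stress-induced subunit of glucan synthase in the cell wall, had 10.07, 10.03 and 9.93 in anaerobic AAC, 9.26, 9.19 and 9.75 in aerobic AAC, 9.67, 9.79 and 9.62 in anaerobic NC and 7.54, 7.62 and 7.46 in aerobic NC. Aerobic NC was again the low group, and GSC2 rose 1.53-fold in AAC and 4.44-fold in NC, for an interaction of -1.54 ± 0.168 (SE, adjusted p = 0.000322). It did not pass in the fit to all 18 arrays.

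**Figure D3:**
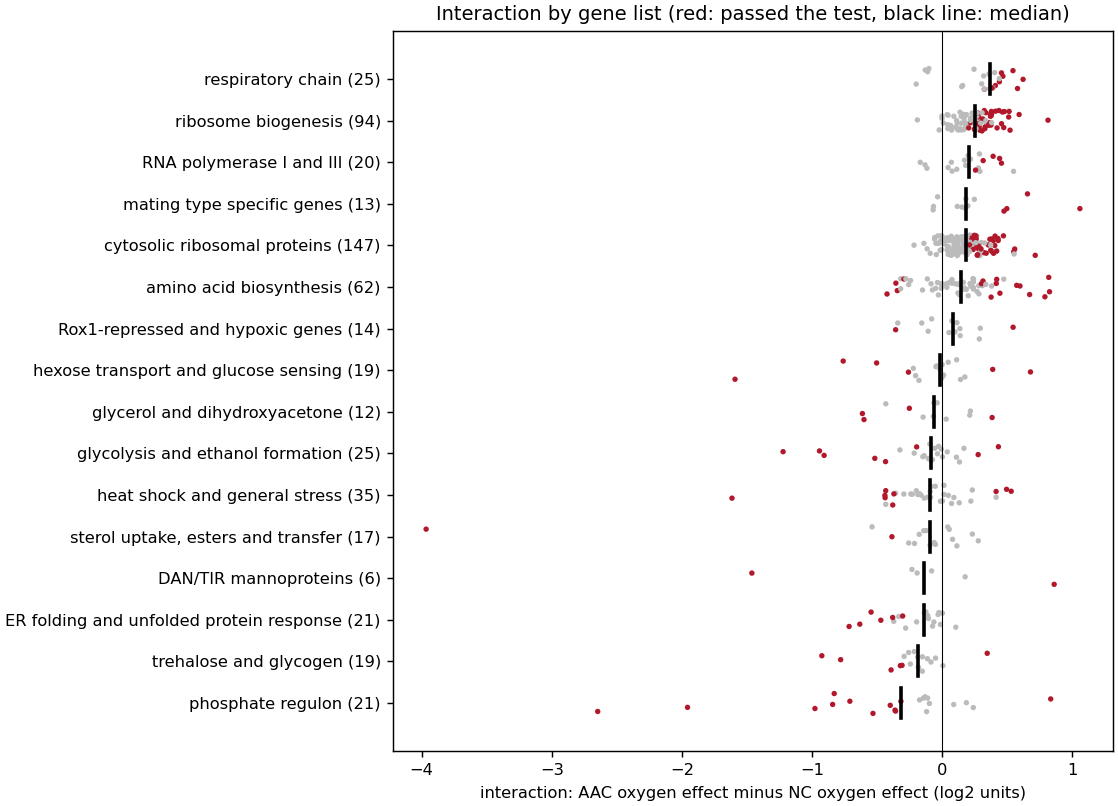
Interaction values (log2 units) of all measured members of 16 gene lists are shown as points, with those that passed in red and the median as a black line, and the number of probe sets in brackets. The ribosome biogenesis and respiratory chain lists have medians of 0.25 and 0.37, and the phosphate regulon one of -0.32.

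Many folding genes of the endoplasmic reticulum rose without oxygen in both strains, and 6 had a smaller change in AAC. Of 21 folding and unfolded protein response genes 6 passed (28.6%), all below 0, and 19 had values below 0, with a list median of -0.14. The median oxygen effect was 0.25 in AAC, where 11 passed as higher and 2 as lower, and 0.40 in NC, where 14 passed as higher and 1 as lower. Of all probe sets 23.8% passed as higher and 26.1% as lower in AAC, and 23.5% and 30.6% in NC. KAR2, the Hsp70 chaperone of the lumen, had 11.62, 11.61 and 11.57 in anaerobic AAC, 11.26, 11.31 and 11.44 in aerobic AAC, 11.36, 11.41 and 11.36 in anaerobic NC and 10.57, 10.56 and 10.58 in aerobic NC. All groups except aerobic AAC and anaerobic NC were separate from each other, and aerobic NC was the lowest. KAR2 rose 1.20-fold in AAC and 1.75-fold in NC, and with oxygen it was 1.71-fold higher in AAC. The interaction was -0.55 ± 0.0656 (SE, adjusted p = 0.000601).

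ERO1, the oxidase that drives disulfide formation, had 9.83, 9.92 and 9.90 in anaerobic AAC, 9.44, 9.65 and 9.73 in aerobic AAC, 9.32, 9.59 and 9.44 in anaerobic NC and 8.51, 8.62 and 8.49 in aerobic NC. It rose 1.21-fold in AAC and 1.88-fold in NC, and was 1.35-fold higher in AAC than in NC without oxygen and 2.09-fold higher with it. Its interaction was -0.63 ± 0.114 (SE, adjusted p = 0.00575). PDI1, the main disulfide isomerase, had 11.27, 11.26 and 11.22 in anaerobic AAC, 11.09, 11.14 and 11.22 in aerobic AAC, 11.10, 11.15 and 11.05 in anaerobic NC and 10.69, 10.80 and 10.61 in aerobic NC. Its AAC arrays overlapped between conditions, the rise in NC was 1.32-fold, and the interaction of -0.30 ± 0.0752 (SE, adjusted p = 0.0258) passed in 7 of the 12 fits without 1 array. The related isomerase gene MPD1 had an interaction of -0.38 (adjusted p = 0.0126), and SIL1, a nucleotide exchange factor for Kar2, one of -0.47 (adjusted p = 0.00304). LHS1, an exchange factor that also acts as a chaperone and was singled out after its value was seen, had an interaction of -0.71 (adjusted p = 0.0170).

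EUG1, another isomerase homologue, had the largest rise of the list in both strains, 4.18-fold in AAC and 5.26-fold in NC. Its interaction of -0.33 ± 0.153 (SE, adjusted p = 0.201) did not pass, with a 95% interval from -0.67 to 0.00227. HAC1 fell by 0.33 in AAC and 0.32 in NC, with an interaction of -0.01 ± 0.103 (SE, adjusted p = 0.961) and a 95% interval from -0.24 to 0.21. The arrays measure HAC1 mRNA as a whole, and its splicing was not measured here. None of the 6 calls below 0 held in the fit to all 18 arrays, where the spread is shared with the third strain, and 4 members passed when its array labelled AAP aerobic replicate 3 was left out of that fit. Leaving out 1 of the 12 arrays gave 5 to 7 calls. Of 17 genes of degradation from the endoplasmic reticulum and 23 of N-glycosylation none passed in limma, with 4 and 0 at an unadjusted p under 0.05. In addition 1 of 21 translocation genes (4.76%) and 1 of 34 genes of vesicle transport to the Golgi (2.94%) passed, both above 0. The share over all probe sets was 10.6%. Neither list had a call in the fit to all 18 arrays. Leaving out 1 array gave 0 to 2 calls above 0 among the translocation genes and 0 or 1 among the vesicle transport genes.

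**Figure D4:**
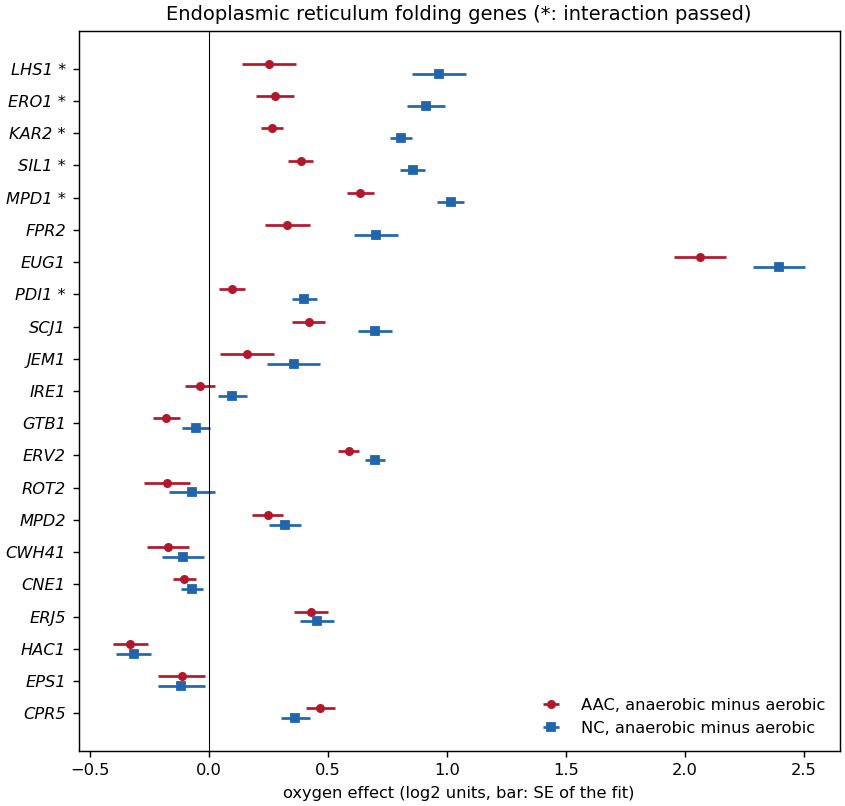
The anaerobic minus aerobic difference (log2 units, with the SE of the fit as a bar) of the 21 folding genes of the endoplasmic reticulum is shown for AAC (circles) and NC (squares), ordered by interaction, with a star where the interaction passed. LHS1, ERO1, KAR2, SIL1, MPD1 and PDI1 passed, each with the larger rise in NC.

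Ribosome genes went the other way. Of 94 ribosome biogenesis genes 39 passed, all above 0 (41.5%), and 90 of the 94 had values above 0. The list's median oxygen effect was -0.12 in AAC, where 41 passed as lower and 7 as higher, and -0.38 in NC, where 82 passed as lower and 2 as higher, for a median interaction of 0.25. Among all probe sets 26.1% passed as lower and 23.8% as higher in AAC, and 30.6% and 23.5% in NC. NSR1, a nucleolar protein gene of pre-rRNA processing, had 8.80, 8.79 and 8.63 in anaerobic AAC, 9.15, 9.22 and 9.01 in aerobic AAC, 8.77, 8.65 and 8.71 in anaerobic NC and 9.66, 9.76 and 9.65 in aerobic NC. The anaerobic groups overlapped, aerobic AAC was above them and aerobic NC was the highest. NSR1 fell 1.31-fold in AAC and 1.97-fold in NC, with an interaction of 0.59 ± 0.0906 (SE, adjusted p = 0.00238). The processome genes UTP6 at 0.44 (adjusted p = 0.00324) and IMP4 at 0.42 (adjusted p = 0.00382) and the assembly factor RRP14 at 0.37 (adjusted p = 0.00196) were similar, with no passing oxygen effect in AAC. The array medians of the list were -0.16 ± 0.0286 in anaerobic AAC, -0.02 ± 0.0329 in aerobic AAC, -0.11 ± 0.0396 in anaerobic NC and 0.28 ± 0.0148 in aerobic NC (deviation from each gene's mean, log2 units, SD, n = 3 each). Aerobic NC was the group that stood apart. With oxygen 79 of the 94 were lower in AAC than in NC, and without oxygen 2 were lower and 2 higher. Of all probe sets 16.2% were lower in AAC with oxygen, and without it 8.06% were lower and 9.51% higher. Leaving out 1 array gave 18 to 56 calls above 0, and the fit to all 18 arrays gave 2.

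RNA polymerase I and III genes, which make the ribosomal RNAs and tRNAs, had 5 of 20 past the test, all above 0 (25%), with a median of 0.21. There were 9 without AAC anaerobic replicate 3 or without NC anaerobic replicate 1, 5 without any other array, and 2 in the fit to all 18 arrays. The shared subunit gene RPC40 had an interaction of 0.44 (adjusted p = 0.00758) and the polymerase I subunit gene RPA49 one of 0.46 (adjusted p = 0.00699), and neither passed in the fit to all 18 arrays. Of 147 probe sets for 127 cytosolic ribosomal protein genes 36 passed, all above 0 (24.5%), with a median of 0.18. Their median oxygen effect was 0.04 in AAC, with 18 higher and 1 lower, and -0.13 in NC, with 0 higher and 51 lower. Of all probe sets 23.8% were higher and 26.1% lower in AAC, and 23.5% and 30.6% in NC. RPL18B had 9.50, 9.69 and 9.35 in anaerobic AAC, 9.08, 9.13 and 8.96 in aerobic AAC, 9.33, 9.29 and 9.26 in anaerobic NC and 9.46, 9.67 and 9.52 in aerobic NC. Its AAC arrays rose without oxygen and its NC arrays fell, and the interaction was 0.72 ± 0.116 (SE, adjusted p = 0.00344). RPL14B at 0.55 (adjusted p = 0.00530), RPL17B at 0.41 (adjusted p = 0.00246) and RPL12A at 0.37 (adjusted p = 0.00819) likewise were higher in AAC and lower in NC without oxygen. Many ribosomal protein genes have near-identical paralogs, and their probe sets cannot be taken as specific to 1 copy. Leaving out 1 array gave 12 to 49 calls above 0, and the fit to all 18 arrays gave 13. None of the 73 mitochondrial ribosomal protein genes passed the interaction in limma, 5 had an unadjusted p under 0.05, and their median was 0.02.

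**Figure D5:**
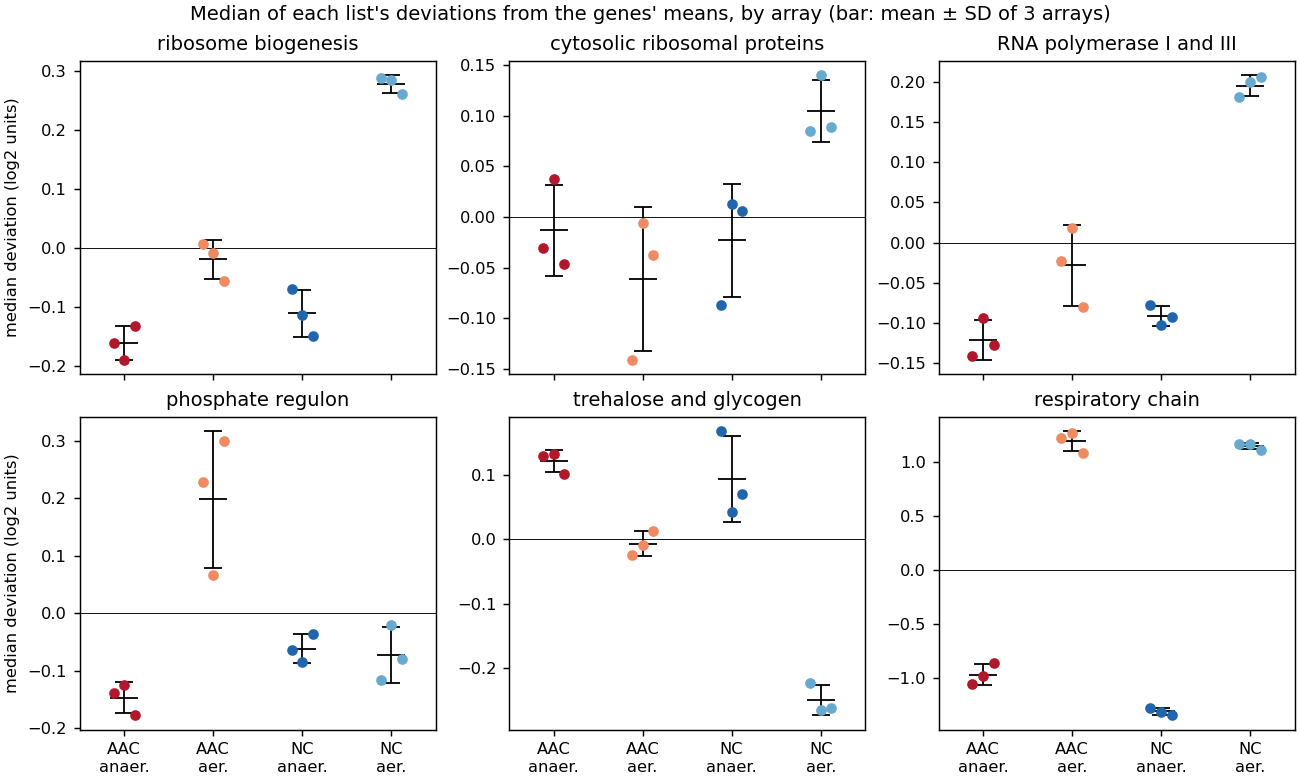
For 6 gene lists the median deviation of the genes from their own means over the 12 arrays (log2 units) is plotted for each array (points), with the mean and SD of the 3 arrays (bars), for anaerobic AAC, aerobic AAC, anaerobic NC and aerobic NC. Aerobic NC is above the other groups in the 3 ribosome-related lists and below them for trehalose and glycogen, and aerobic AAC is the highest group for the phosphate regulon.

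Of 62 measured amino acid biosynthesis genes 40 fell and 11 rose without oxygen in AAC, and 44 fell and 7 rose in NC. Among all probe sets 26.1% fell and 23.8% rose in AAC, and 30.6% fell and 23.5% rose in NC. In the interaction 16 passed (25.8%), 12 above 0 and 4 below 0, with a median of 0.15. With 1 array left out, 9 to 19 were above 0 (19 without NC anaerobic replicate 1) and 1 to 5 below 0 (1 or 2 without AAC anaerobic replicate 2, AAC aerobic replicate 3, NC anaerobic replicate 2 or any array of aerobic NC), and the fit to all 18 arrays gave 5 above and 0 below. CPA1, the small subunit of the carbamoyl phosphate synthetase of arginine synthesis, had 9.53, 9.44 and 9.49 in anaerobic AAC, 9.40, 9.30 and 9.39 in aerobic AAC, 8.41, 8.26 and 8.30 in anaerobic NC and 9.05, 9.09 and 8.91 in aerobic NC. Anaerobic NC lay below all others, and the CPA1 fall there was 1.62-fold, while the AAC difference of 0.13 did not pass. The interaction was 0.82 ± 0.0800 (SE, adjusted p = 0.000145), and YOR302W, the upstream reading frame in the leader of the same transcript, gave 0.91 (adjusted p = 0.00353). GLN1, the glutamine synthetase gene, had 9.91, 9.76 and 9.99 in anaerobic AAC, 9.74, 9.53 and 9.50 in aerobic AAC, 9.25, 8.99 and 9.12 in anaerobic NC and 9.69, 9.70 and 9.56 in aerobic NC. It rose 1.23-fold in AAC and fell 1.44-fold in NC, with an interaction of 0.83 ± 0.120 (SE, adjusted p = 0.00178). HIS6 at 0.42 (adjusted p = 0.00206), LYS20 at 0.79 (adjusted p = 0.00732), ILV3 at 0.67 (adjusted p = 0.00401) and ARG3 at 0.60 (adjusted p = 0.00532) were further members above 0. MET6, the methionine synthase gene, was below 0 at -0.42 (adjusted p = 0.000601). It fell by 0.43 in AAC while its NC arrays overlapped, and it did not pass in the fit to all 18 arrays. URA3, a gene of pyrimidine synthesis, fell in NC by 0.35 and had -0.02 in AAC, with an interaction of 0.33 (adjusted p = 0.00330) that did not pass in that fit either.

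The respiratory chain genes fell without oxygen in both strains, and 9 of 25 fell less in AAC (36%). None passed in the other direction. The list's median oxygen effect was -2.13 in AAC, where all 25 passed as lower, and -2.45 in NC, where 24 did, and its median interaction was 0.37. Of all probe sets 26.1% passed as lower in AAC and 30.6% in NC. COX5A, the aerobic isoform of a cytochrome oxidase subunit, had 7.79, 7.74 and 8.13 in anaerobic AAC, 10.53, 10.48 and 10.28 in aerobic AAC, 7.35, 7.38 and 7.46 in anaerobic NC and 10.54, 10.54 and 10.49 in aerobic NC. With oxygen the strains overlapped, and without it every AAC array was above every NC array. COX5A fell 5.84-fold in AAC and 8.72-fold in NC, with an interaction of 0.58 ± 0.133 (SE, adjusted p = 0.0177). QCR10 at 0.62 (adjusted p = 0.0101), COX13 at 0.54 (adjusted p = 0.00401) and QCR8 at 0.44 (adjusted p = 0.0146) likewise were higher in AAC than in NC without oxygen and showed no strain difference that passed with it. QCR10 did not pass in the fit to all 18 arrays. CYC1, the main cytochrome c gene, fell by 5.67 in AAC and 6.0 in NC, with an interaction of 0.32 (adjusted p = 0.0326). Leaving out 1 array gave 4 to 12 calls above 0, and all 18 arrays gave 5. COX5B, the hypoxic counterpart of COX5A, rose 2.82-fold in AAC and 3.62-fold in NC, and its interaction of -0.36 ± 0.0978 (SE, adjusted p = 0.0388) passed in 3 of 12 fits without 1 array.

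ROX1, whose product represses hypoxic genes when heme is present, had 5.94, 5.68 and 6.06 in anaerobic AAC, 7.38, 7.25 and 7.27 in aerobic AAC, 5.34, 5.25 and 5.35 in anaerobic NC and 7.23, 7.32 and 7.23 in aerobic NC. It fell 2.65-fold in AAC and at least 3.21-fold in NC, where it reached background. Its interaction was 0.55 ± 0.112 (SE, adjusted p = 0.0110), but 0.28 with values raised to background, which did not pass (adjusted p = 0.143). COX5B and ROX1 were the members of 14 Rox1-repressed and hypoxic genes that passed (14.3%, beside 10.6% of all probe sets). CYC7, the hypoxic cytochrome c, did not, with an interaction of 0.29 ± 0.248 (SE, adjusted p = 0.514). The 6 DAN/TIR cell wall mannoprotein genes all rose in both strains, and 2 of them passed the interaction (33.3%), in opposite directions. A rise passed for 23.8% of all probe sets in AAC and 23.5% in NC.

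DAN4 had 8.55, 8.26 and 8.17 in anaerobic AAC, 6.26, 6.19 and 6.27 in aerobic AAC, 9.45, 9.55 and 8.98 in anaerobic NC and 5.76, 5.77 and 5.80 in aerobic NC. It rose 4.25-fold in AAC and 11.7-fold in NC, with an interaction of -1.46 ± 0.182 (SE, adjusted p = 0.000727). TIR3 had 11.51, 11.44 and 11.14 in anaerobic AAC, 5.83, 5.60 and 5.64 in aerobic AAC, 11.76, 11.51 and 11.46 in anaerobic NC and 6.70, 6.87 and 6.72 in aerobic NC. Its anaerobic arrays overlapped between strains, and it was lower in aerobic AAC than in aerobic NC, and it rose 51.0-fold in AAC and 28.1-fold in NC. Its interaction was 0.86 ± 0.150 (SE, adjusted p = 0.00491), and it did not pass in the fit to all 18 arrays. All 16 seripauperin probe sets rose in both strains, against 23.8% of all probe sets in AAC and 23.5% in NC. The seripauperin median oxygen effects were 2.63 in AAC and 3.20 in NC. The median interaction of these 16 was -0.77, but 1 passed (6.25%, beside 10.6% of all probe sets). It was a probe set named PAU9 that several near-identical genes share, at -1.15 (adjusted p = 0.0447). That call was made in 4 of 12 fits without 1 array. The number of seripauperin probe sets below 0 that passed was 6 without NC anaerobic replicate 3, 2 or 3 without 1 array of anaerobic AAC, and 0 without any other array.

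Glycerol and dihydroxyacetone genes passed for 4 of 12 (33.3%). GUT2, the mitochondrial glycerol phosphate dehydrogenase gene, fell 2.75-fold without oxygen in AAC and 1.79-fold in NC, with an interaction of -0.61 ± 0.0870 (SE, adjusted p = 0.00175). DAK2, a dihydroxyacetone kinase gene, was at background in AAC under both conditions. In NC it read 8.24, 7.80 and 7.88 without oxygen and 7.36, 7.49 and 7.47 with oxygen, a 1.45-fold rise, and its interaction was -0.60 (adjusted p = 0.0124). With AAC at background, a change there could not be measured. STL1 at -0.25 (adjusted p = 0.0162) was below 0 and GPP1 at 0.38 (adjusted p = 0.0242) above 0. GPD1 and GPP2, the osmotically induced enzymes of glycerol formation, were higher in AAC under both conditions, GPD1 by 1.79-fold without and 1.87-fold with oxygen and GPP2 by 1.71-fold and 2.31-fold. Neither interaction passed, at -0.06 ± 0.117 (SE, adjusted p = 0.795) for GPD1 and -0.43 ± 0.142 (SE, adjusted p = 0.0792) for GPP2. GUT2 did not pass in the fit to all 18 arrays, which gave 1 call.

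A list of 13 mating genes held AGA1, FUS1 and HO beside genes specific to 1 mating type. Of these 13, 10 rose without oxygen in AAC and 8 in NC, and none fell. A rise passed for 23.8% of all probe sets in AAC and 23.5% in NC. In the interaction 4 of the 13 passed, all above 0 (30.8%), and the list's median oxygen effects were 0.85 in AAC and 0.27 in NC. STE2, the alpha factor receptor, had 10.44, 10.32 and 10.41 in anaerobic AAC, 9.43, 9.53 and 9.43 in aerobic AAC, 10.14, 10.16 and 10.23 in anaerobic NC and 9.71, 9.85 and 9.69 in aerobic NC. It rose 1.90-fold in AAC and 1.35-fold in NC, with an interaction of 0.50 ± 0.0756 (SE, adjusted p = 0.00234). MFA2, a gene of the a-factor pheromone, rose 2.47-fold in AAC and 1.77-fold in NC, with an interaction of 0.48 (adjusted p = 0.00102). AGA1, the anchor subunit of agglutinin, had 8.20, 8.11 and 7.94 in anaerobic AAC, 7.15, 7.14 and 7.41 in aerobic AAC, 6.72, 6.77 and 6.71 in anaerobic NC and 6.51, 6.62 and 6.49 in aerobic NC, and its interaction of 0.66 ± 0.112 (SE, adjusted p = 0.00449) did not pass in the fit to all 18 arrays. SAG1, the alpha-agglutinin of the opposite mating type, had 7.81, 7.67 and 7.62 in anaerobic AAC, 6.28, 6.23 and 6.28 in aerobic AAC, 6.61, 6.53 and 6.53 in anaerobic NC and 6.19, 6.18 and 6.15 in aerobic NC. It was 2.71-fold higher without oxygen in AAC and 1.30-fold higher in NC, with anaerobic AAC above all other arrays, for an interaction of 1.06 ± 0.0693 (SE, adjusted p = 7.85e-06). The alpha factor genes of the host were at background throughout.

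Outside the lists, ULI1, a gene named for its induction by the unfolded protein response, had the highest interaction above 0. It had 8.48, 8.61 and 8.44 in anaerobic AAC, 6.71, 6.87 and 6.70 in aerobic AAC, 6.29, 6.19 and 6.13 in anaerobic NC and 5.98, 6.05 and 6.03 in aerobic NC. Anaerobic AAC was far above the rest and aerobic AAC was above NC. ULI1 rose 3.36-fold without oxygen in AAC and 1.13-fold in NC, for an interaction of 1.57 ± 0.0866 (SE, adjusted p = 1.62e-06). ZRT2, the low-affinity zinc transporter, rose 1.22-fold in AAC with overlapping arrays and fell 1.77-fold in NC, with an interaction of 1.11 ± 0.141 (SE, adjusted p = 0.000806). ELO1, a fatty acid elongase gene, had 8.46, 8.39 and 8.31 in anaerobic AAC, 8.96, 9.04 and 9.19 in aerobic AAC, 7.31, 7.29 and 7.55 in anaerobic NC and 8.98, 9.16 and 9.06 in aerobic NC. Its aerobic arrays overlapped between strains, and it fell 1.60-fold in AAC and 3.21-fold in NC, for an interaction of 1.01 ± 0.114 (SE, adjusted p = 0.000384).

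FLO11, the flocculin of surface adhesion, had 11.34, 11.23 and 11.40 in anaerobic AAC, 7.09, 7.09 and 7.15 in aerobic AAC, 10.20, 10.33 and 10.26 in anaerobic NC and 6.95, 6.95 and 6.90 in aerobic NC. It rose 18.5-fold in AAC and 10-fold in NC, with an interaction of 0.89 ± 0.0689 (SE, adjusted p = 2.26e-05). The sphingolipid hydroxylase gene SCS7 rose 1.30-fold in AAC and fell 1.34-fold in NC, with an interaction of 0.81 (adjusted p = 0.00234). NCE102, an eisosome protein gene of the plasma membrane, fell 2.30-fold in AAC and 4.01-fold in NC, with an interaction of 0.80 (adjusted p = 0.000777). GIS2, a translation-associated zinc finger gene, overlapped between conditions in AAC and fell 1.82-fold in NC, with an interaction of 0.88 (adjusted p = 5.82e-05). The RNA helicase gene DBP2 fell in both strains, with an interaction of 0.81 (adjusted p = 0.00732) that did not pass in the fit to all 18 arrays. YLR460C, a gene with no role given here, rose 4.45-fold in AAC and 2.41-fold in NC, with an interaction of 0.88 (adjusted p = 0.00178). On the other side AAD10, a putative aryl-alcohol dehydrogenase gene, had 6.15, 6.27 and 5.91 in anaerobic AAC, 6.11, 6.04 and 6.10 in aerobic AAC, 7.57, 7.37 and 7.48 in anaerobic NC and 5.91, 5.95 and 5.97 in aerobic NC. Only anaerobic NC was raised, by 2.89-fold, and the interaction was -1.51 ± 0.111 (SE, adjusted p = 1.68e-05).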

How the data were processed

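RNA from 18 batch cultures was labelled from 250 ng and hybridised to Affymetrix Yeast Genome 2.0 arrays, per the labels' protocols, and 12 arrays were used here. The deposited values are read as log2 from their range of 4.85 to 12.8, since their scale is not stated. The submitters' processing notes name PLIER and R 2.10.1. How background was corrected, how arrays were normalized and which log base was used is not given in the sources used here. Folds therefore rest on the log2 reading, and a normalization that evened out the arrays would hide a change shared by most genes. Of 10928 probe sets 5498 named 1 S. cerevisiae gene in the platform annotation, with 12 symbols updated, 1 named several and 3683 were unnamed there. The other 1746 named 1 gene absent from the S. cerevisiae reference and were taken as fission yeast without a check of species. Genomic positions and sequences were not used here.

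Computed from the deposited values, 1 mean per group was fitted with limma 3.58.1 under R 4.3.3, using lmFit and eBayes without covariates (residual degrees of freedom 8, prior 3.44). The 5 contrasts share the 4 groups. P-values are two-sided and adjusted by Benjamini and Hochberg over the 5498 probe sets for each contrast, and the threshold was 0.05. The fission yeast tpi1 probe set is not among the 5498, and its p-value was adjusted over all 10928 probe sets. The procedure was tested on simulated data. A fold is written "at least" where the lower group's mean was under the mean background level of its own 3 arrays. Values under an array's level (5.54 to 5.59) were raised to it.

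The members, the 31 gene lists and the tests were chosen with earlier results of these data known, so list counts are descriptions and no list was tested. Named genes are the 15 largest passing interaction values each way, up to 4 members with the smallest p of each of 16 lists, and a set of plasmid, folding, stress, glycerol, phosphate and oxygen genes. Further members of the lists, such as LHS1, and the biotin genes as a group were picked after values were seen. Labels give no scan date or batch. They do not say that replicate numbers mark a shared batch, and in 1 of 6 pairs of groups all 3 same-numbered arrays correlated over 0.1 in their deviations, so numbers were not taken to pair arrays. Alternatives were other normalization, centring and filters, other eBayes settings, fits to 17 or 18 arrays, a replicate block, a coding length trend removed by loess with a span of 0.5, all probe sets, values raised to background, and each array left out. The precision is limited by 3 arrays per group.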

Additional observations from a re-analysis of the deposited data

Results flagged for a closer look

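The oxygen effect differed between AAC and NC, by the limma test of the interaction itself, for 582 probe sets, and each gene below was among them. Values are the AAC minus NC difference of the oxygen effects in log2 units.

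With a change that was more negative, or less positive, in AAC by over 1 log2 unit were HES1 at -3.97, PHO84 at -2.65, PHO5 at -1.96, VHT1 at -1.77, BIO3 at -1.72, TMA10 at -1.62, HXT2 at -1.59, GSC2 at -1.54, AAD10 at -1.51, DAN4 at -1.46, BIO5 at -1.30, SUC2 at -1.28, BIO2 at -1.23, HXK1 at -1.22 and PAU9 at -1.15. Differences of 0.5 to 1 log2 units in the same direction were found for TDH1 at -0.94, GSY1 at -0.92, GLK1 at -0.91, GLC3 at -0.78, BIO4 at -0.73, ERO1 at -0.63, GUT2 at -0.61, DAK2 at -0.60, KAR2 at -0.55 and MTH1 at -0.50. Smaller ones were those of SIL1 at -0.47, HSP78 at -0.44, SSA1 at -0.44, GPM2 at -0.43, MET6 at -0.42, PHM7 at -0.40, TPS2 at -0.39, AUS1 at -0.39, MPD1 at -0.38, COX5B at -0.36, NTH1 at -0.31 and PDI1 at -0.30.

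With a change that was more positive, or less negative, in AAC by over 1 log2 unit were ULI1 at 1.57, ZRT2 at 1.11, SAG1 at 1.06 and ELO1 at 1.01. Differences of 0.5 to 1 were found for YOR302W at 0.91, FLO11 at 0.89, YLR460C at 0.88, GIS2 at 0.88, TIR3 at 0.86, PHO3 at 0.83, GLN1 at 0.83, CPA1 at 0.82, DBP2 at 0.81, SCS7 at 0.81, NCE102 at 0.80, RPL18B at 0.72, HXT1 at 0.68, AGA1 at 0.66, QCR10 at 0.62, NSR1 at 0.59, COX5A at 0.58, RPL14B at 0.55, ROX1 at 0.55 and COX13 at 0.54. Smaller ones were those of STE2 at 0.50, MFA2 at 0.48, RPA49 at 0.46, RPC40 at 0.44, QCR8 at 0.44, UTP6 at 0.44, IMP4 at 0.42, HIS6 at 0.42, HOR7 at 0.42, RPL17B at 0.41, RRP14 at 0.37, RPL12A at 0.37 and URA3 at 0.33. DAK2 was at background in AAC, where a change could not be measured, and ROX1 did not pass with values raised to background. BIO5 still passed with values raised to background, but at -0.86. No explanation was tested for any of these differences. No Dixon test for single outlying arrays was run on these groups of 3.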

How the results depend on the processing

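The number of probe sets past the threshold was 582, with 341 above 0 and 241 below 0. It depended on which arrays shared the estimate of the spread. The fit to all 18 arrays gave 158, with 92 above and 66 below 0, and 17 arrays, without AAP aerobic replicate 3, gave 667. Leaving out each of the 12 arrays gave 347 to 1040 in all, 175 to 618 above 0 and 142 to 422 below 0. The highest counts were without NC anaerobic replicate 1, and totals more than 1.5 times lower were 355 without NC anaerobic replicate 2 and 372, 347 and 369 without aerobic NC replicate 1, 2 or 3. The share above 0 was 58.6%, and 50.4% without NC aerobic replicate 2. The other settings gave 513 to 759, all within 1.5 times: quantile normalization 591, median centring 660, dim probe sets left out 552, eBayes with trend and robust settings 591, all 10928 probe sets 513, coding length trend removed 679, and values raised to background, an alternative chosen after seeing the data, 583. The replicate numbers share only a number, and 9 of 12 arrays correlated best with an array of their own number, which is a hint from the data and not from the design. With the replicate block 649 passed (394 above, 255 below 0), with the block within each oxygen condition 759 (454 and 305), and with the block and the length trend removed 704 (400 and 304), and each of the 74 genes checked one by one kept its call under the replicate block.

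Of the 74 genes checked one by one, none changed sign in any of the 24 settings. The fit to all 18 arrays kept 46 of the 74, and lost KAR2, ERO1, SIL1, MPD1, PDI1, PHO5, GSC2, TDH1, GPM2, MTH1, NTH1, HSP78, SSA1, HOR7, GUT2, MET6, URA3, NSR1, UTP6, RPL12A, RPC40, RPA49, QCR10, COX5B, AGA1, DBP2, TIR3 and PAU9. With AAP aerobic replicate 3 left out it kept 72 and lost SIL1 and MPD1. Values raised to background lost ROX1 and PAU9, quantile normalization HOR7 and COX5B, all probe sets COX5B and PAU9, trend and robust settings PAU9, and block with length trend AUS1. Leaving out 1 array kept 70 to 74, and the losses were in PAU9, COX5B, AUS1 and PDI1. GPP2, which did not pass, passed in 5 settings, among them quantile normalization (adjusted p = 0.0455), and CYC7 passed with the block within each oxygen condition (adjusted p = 0.0451). GPD1 and HAC1, neither of which passed in any setting, changed sign. GPD1 ranged from -0.13 to 0.04 without 1 array, with 0.0437 without NC anaerobic replicate 1. HAC1 ranged from -0.0770 to 0.0624, and was above 0 without AAC anaerobic replicate 1 (0.00376) or 2 (0.0337), AAC aerobic replicate 1 (0.00265), NC anaerobic replicate 3 (0.0624) or NC aerobic replicate 1 (0.00811) or 3 (0.00955). Of the 582 calls 42 had a group at background, where the signal limits the size of the change.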

Other observations

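Over all probe sets 10.6% passed the interaction, and the following lists are given beside that share. Among 17 ATP synthase genes 1 was above and 1 below 0 (11.8%), with median oxygen effects of -1.16 in AAC and -1.38 in NC, and the one below 0 was STF2, which stabilises the enzyme's inhibitor, at -1.02 (adjusted p = 0.0244). Among 15 genes of the TCA cycle, which feeds respiration, 1 passed, below 0 (6.67%). In that list the oxygen effects were close, with medians of -0.93 in AAC and -0.88 in NC. Of 26 genes of oxidative stress defence 2 were above and 1 below 0 (11.5%). Of 16 peroxisome and beta oxidation genes 3 were below 0 (18.8%), of 10 heme genes 1 (10%) and of 12 sporulation genes 1 (8.33%). None of 35 proteasome genes and none of 24 iron uptake genes passed in limma, and 1 of each had an unadjusted p under 0.05. The iron list had a median of -0.24 and 21 of its 24 members below 0, but this rested on AAC aerobic replicate 3. The list's median deviation was 0.53 on that array and -0.05 and -0.22 on the others of its group, and without that array the median interaction was -0.0168 with 13 of 24 below 0. Over all 5498 probe sets 1386 had an unadjusted p under 0.05, and no other tool was run.

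Beside the named genes, YAL067W-A and YEL073C had passing interactions of at least 2-fold, seen after the values were known. YAL067W-A read 6.01 ± 0.170 in anaerobic NC and was at background in the other 3 groups, and its interaction was -1.06 (adjusted p = 5.82e-05). Its anaerobic NC mean was little above the background level of 5.58 log2 units, so a size of at least 2-fold rested on values under background. YEL073C averaged 5.77 ± 0.190 in anaerobic AAC, 6.21 ± 0.0986 in aerobic AAC, 6.78 ± 0.122 in anaerobic NC and 6.22 ± 0.102 in aerobic NC (log2 units, SD, n = 3 each), for an interaction of -1.0 (adjusted p = 0.00124).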
